A study of Homo sapiens with 15 samples.

Results

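The 10 genes described here are CDH1, CDH2 and CDH11 (cadherins), SNAI1, SNAI2, TWIST1, ZEB1 and ZEB2 (transcription factors of the epithelial-mesenchymal transition), and VIM and FN1 (vimentin and fibronectin). They were chosen by name, 10 of the 30992 genes on the array, and are represented by 15 probes on 33 spots, with ZEB1 carried under its former symbol TCF8 and ZEB2 under ZFHX1B. RNA levels were read in MDA-MB231, a human triple-negative breast cancer line with mesenchymal features, on 15 two-colour Agilent arrays. On 5 arrays the treated channel (Cy5) held shCtBP2 cells, puromycin-selected cells stably carrying a short hairpin RNA against the corepressor CtBP2. On 5 arrays it held cells treated for 24 h with HIPP (sodium 2-hydroxyimino-3-phenylpropanoate), and on 5 cells treated for 24 h with P4 (sodium 2-hydrazone-3-phenylpropanoate), both used as CtBP inhibitors. The control channel (Cy3) held MDA-MB231 cells that the labels call untreated on every array, whereas the methods name scrambled control cells for the knockdown. No array exchanged the dyes, so a dye effect of a gene and its response cannot be told apart. All arrays used the same cell line, and the labels count the arrays of a treatment as biological replicates.

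During the epithelial-mesenchymal transition, cells lose E-cadherin (CDH1), the adhesion molecule of epithelia, and gain other cadherins such as N-cadherin (CDH2) and cadherin 11 (CDH11), the intermediate filament vimentin and the matrix protein fibronectin. SNAI1, SNAI2, ZEB1 and ZEB2 are zinc finger repressors that bind E-box elements, the CDH1 promoter among them, and TWIST1 is a basic helix-loop-helix factor that acts in the same programme. CtBP proteins do not bind DNA themselves, and ZEB1 and ZEB2 are among the factors that recruit them to target genes.

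The cells carried the mesenchymal genes of this line: VIM, FN1, CD44, AXL and CAV1 were well above background, by the scanner software's own test, in both channels of all 15 arrays. So were EPCAM and GATA3, which had been listed as low in such cells, and of 12 luminal breast markers, 9 were above background in both channels of every array and PGR in none. ESR1 was above background in 12 treated and 11 control channels. The share of gene spots with such signal in treated cells was 65.2 to 77.5% per shCtBP2 array, 69.5 to 73.8% per HIPP array and 67.6 to 72.9% per P4 array. The control channel of these arrays had 64.9 to 73.1%, 70.3 to 81.0% and 66.4 to 77.2%. Of 10 leukocyte and 8 endothelial marker genes, 2 and 1 were above background in both channels of every array. CTBP2, the gene targeted by the hairpin, had log2 ratios of treated over control cells of -0.36, -0.35, -0.59, -0.44 and -0.29 on the 5 shCtBP2 arrays (mean -0.41, limma adjusted p = 0.0595). It was lower on every shCtBP2 array but did not pass the test. The paper reports a significant fall of CtBP2 mRNA by real-time PCR, and of its protein, in silenced cells against scrambled control cells. These are other measures than the array ratio. With HIPP, CTBP2 was higher on 5 of 5 arrays and passed the adjusted p but not the fold threshold (0.57 ± 0.36, adjusted p = 0.00256), and with P4 it did not pass (0.17, adjusted p = 0.344).

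Each value below is a log2 ratio of treated over control cells, given as mean ± SD over 5 arrays, with a limma p adjusted over all genes tested. A gene is called differentially expressed where its adjusted p lies under 0.05 and its linear fold change exceeds the threshold that the methods set for the treatment, 1.5 for shCtBP2, 2.5 for HIPP and 1.8 for P4. In shCtBP2 cells, 0 of the 10 members were called, against 6.57% of all 27582 genes tested. With HIPP, 1 of the 9 members tested was called (7.05% of all genes), and with P4, 1 of 10 (8.46% of all genes). That member was CDH11 in both, and it was lower. By the adjusted p alone, the members that passed were 1 of 10 in shCtBP2 cells (13.5% of all genes), 4 of 9 with HIPP (48.7%) and 6 of 10 with P4 (31.9%). The share with HIPP lies near that of all genes, so the count says little about these genes as a group. Over the 8 members with signal above background, the median log2 ratio was -0.00042 after the knockdown, 0.06 after HIPP and 0.09 after P4, where all genes tested had 0.04, 0.08 and 0.11. VIM was not tested with HIPP because its signals varied too little to pass the interquartile range filter.

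**Figure D1:**
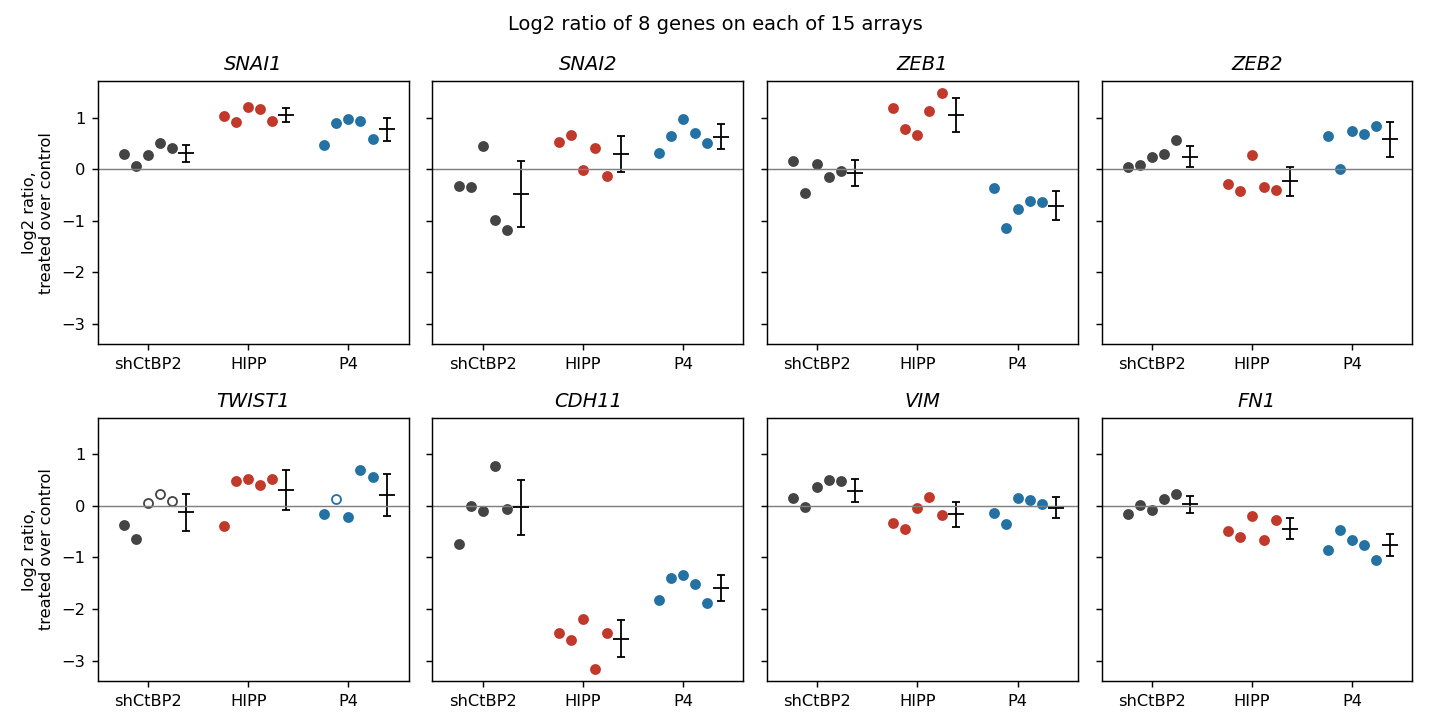
Log2 ratio of treated over control cells (y axis, linear) for the 8 members with signal above background, 1 point per array, in shCtBP2, HIPP and P4 arrays (x axis); the black marks are means with SD, the grey line marks 0, and open points had a channel not well above background. CDH11 lies below 0 on all 10 inhibitor arrays, SNAI1 above 0 on all 15 arrays, and ZEB1 above 0 on all HIPP arrays and below 0 on all P4 arrays.

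SNAI1 encodes Snail, a repressor that can start the transition. It was higher than in control cells on 15 of 15 arrays. In shCtBP2 cells its log2 ratios were 0.30, 0.07, 0.28, 0.51 and 0.41, with HIPP 1.03, 0.93, 1.21, 1.17 and 0.94, and with P4 0.46, 0.90, 0.97, 0.94 and 0.59. The lowest HIPP array exceeded the highest shCtBP2 array, and the HIPP and P4 ranges overlapped. SNAI1 rose 2.08-fold with HIPP (1.05 ± 0.13, adjusted p = 4.77e-07) and 1.71-fold with P4 (0.77 ± 0.23, adjusted p = 4.26e-05), both under the fold thresholds. With mean signals that were corrected for neither background nor dye, the HIPP value was 0.34 (adjusted p = 0.188) and the P4 value 0.54 (adjusted p = 0.0761). In shCtBP2 cells it rose 1.24-fold (0.31 ± 0.17, adjusted p = 0.0404), and it missed the test without shCtBP2 replicate 1, 3, 4 or 5 (adjusted p between 0.0835 and 0.149) or with slide, the glass slide of 4 arrays, as a fixed block (0.29, adjusted p = 0.278). Leaving out P4 replicate 1, the lowest of its group, raised the P4 mean to 0.85 and past the threshold for a call.

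SNAI2 encodes Slug, the relative of Snail, and was measured by a pair of probes. The bright probe, A_23_P169039, was above background on all 15 arrays in both channels. Its log2 ratios were -0.24, -0.38, -0.33, -0.39 and -0.25 in shCtBP2 cells, 0.08, 0.31, 0.15, 0.20 and -0.33 with HIPP, and 0.77, 0.80, 1.11, 1.22 and 1.21 with P4. All shCtBP2 arrays were lower and all P4 arrays higher than control, while the HIPP arrays lay on both sides of 0.

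Tested probe by probe, A_23_P169039 fell in shCtBP2 cells (-0.32 ± 0.07, adjusted p = 0.0480) and rose with P4 (1.02 ± 0.22, adjusted p = 6.07e-06), where it passed the fold threshold. With HIPP it averaged 0.08 ± 0.25 and did not pass the interquartile range filter. The other probe, A_24_P937139, was above background on 5 treated and 6 control channels of 15 and scattered widely, with -0.64 ± 1.29 for the knockdown, 0.50 ± 0.54 for HIPP and 0.23 ± 0.43 for P4. Averaged over both probes, SNAI2 had -0.48 ± 0.64 in shCtBP2 cells (adjusted p = 0.112), 0.29 ± 0.35 with HIPP (adjusted p = 0.218) and 0.63 ± 0.24 with P4 (1.55-fold higher, adjusted p = 0.0208). The P4 value missed the test without P4 replicate 3 (adjusted p = 0.0693) or 4 (adjusted p = 0.0607), and with slide as a fixed block (0.37, adjusted p = 0.563). With the brightest probe alone SNAI2 was called with P4, and without shCtBP2 replicate 3, the only shCtBP2 array above 0, it was called as lower in shCtBP2 cells (-0.71).

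ZEB1 encodes a zinc finger and homeodomain repressor of epithelial genes that binds CtBP. It was read by 1 probe, A_23_P202013, at chr10:31852945-31853004 of the hg17 build on the plus strand. The first 30 of its 60 bases are shown because the directions in HIPP and P4 rest on this probe alone. ZEB2, its close relative, was likewise read by 1 probe, A_23_P142560, at chr2:144979993-144980052 on the minus strand. All probe sequences are in lower case as no part is marked.
ZEB1 probe A_23_P202013: aagaaaatgcggaagacagaaaatggaatg
ZEB2 probe A_23_P142560: cttttaatctgtgtttctgcaagtgccatc

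The log2 ratios of ZEB1 were 0.16, -0.46, 0.11, -0.15 and -0.03 in shCtBP2 cells, 1.19, 0.78, 0.67, 1.12 and 1.48 with HIPP, and -0.36, -1.14, -0.77, -0.62 and -0.64 with P4. It was higher than control on 5 of 5 HIPP arrays and lower on 5 of 5 P4 arrays, and these groups did not overlap. ZEB1 rose 2.07-fold with HIPP (1.05 ± 0.33, adjusted p = 1.24e-05) and fell to 61.3% of control with P4 (-0.71 ± 0.29, adjusted p = 0.00106), in both cases under the fold threshold. In shCtBP2 cells it averaged -0.07 ± 0.25 (adjusted p = 0.769). By slide, the means were 0.88 and 1.30 in the HIPP arrays and -0.72 and -0.64 in the P4 arrays. With slide as a fixed block in the fit, the P4 value was -0.42 and did not pass (adjusted p = 0.286), while the HIPP value was 1.10 (adjusted p = 0.000418). The HIPP value was 0.56 after normexp background correction and loess (adjusted p = 0.000930) and 0.19 with uncorrected mean signals, where it did not pass (adjusted p = 0.313). The P4 value was -0.36 with normexp and loess, without a test, and -0.54 with mean signals (adjusted p = 0.0203). HIPP and P4 were used at different concentrations, so no test was made between them.

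ZEB2 had log2 ratios of 0.05, 0.07, 0.24, 0.29 and 0.56 in shCtBP2 cells, -0.28, -0.43, 0.27, -0.35 and -0.40 with HIPP, and 0.64, -0.00, 0.75, 0.68 and 0.85 with P4. It rose 1.5-fold with P4 (0.58 ± 0.34, adjusted p = 0.00348), with 1 array at control level, and with slide as a fixed block the value was 0.73 and did not pass (adjusted p = 0.0861). In shCtBP2 cells the mean was 0.24 ± 0.20 (adjusted p = 0.235) and with HIPP -0.24 ± 0.29 (adjusted p = 0.137). With uncorrected mean signals the HIPP value was -0.72 and passed the adjusted p (0.0126). Leaving out each array, it ranged from -0.37 to -0.19 and passed in 1 of 15 settings. ZEB1 and ZEB2 thus had means of opposite sign with each inhibitor, and the ZEB2 mean of -0.24 with HIPP did not pass.

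TWIST1 was read by a pair of probes, of which A_23_P71073 was above background on no array. The other, A_23_P71067, was above background in 12 treated and 11 control channels of 15, with a mean log2 ratio of 0.08 ± 0.14 for the knockdown, 0.26 ± 0.34 for HIPP and 0.39 ± 0.25 for P4. It was higher on 5 of 5 P4 arrays and, tested probe by probe, rose with P4 (adjusted p = 0.0232). With uncorrected mean signals the average of both probes turned to -0.38 with HIPP and -0.28 with P4, past the test (adjusted p = 0.000518 and 0.00729). The knockdown value was -0.31 with these signals and also passed the adjusted p (0.00355). With processed signals averaged over both probes, no treatment passed: the means were -0.13 ± 0.36 for the knockdown, 0.30 ± 0.39 for HIPP and 0.21 ± 0.41 for P4 (adjusted p = 0.694, 0.145 and 0.352). Leaving out each array, the HIPP mean ranged from 0.25 to 0.48 and passed in 1 of 15 settings.

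**Figure D2:**
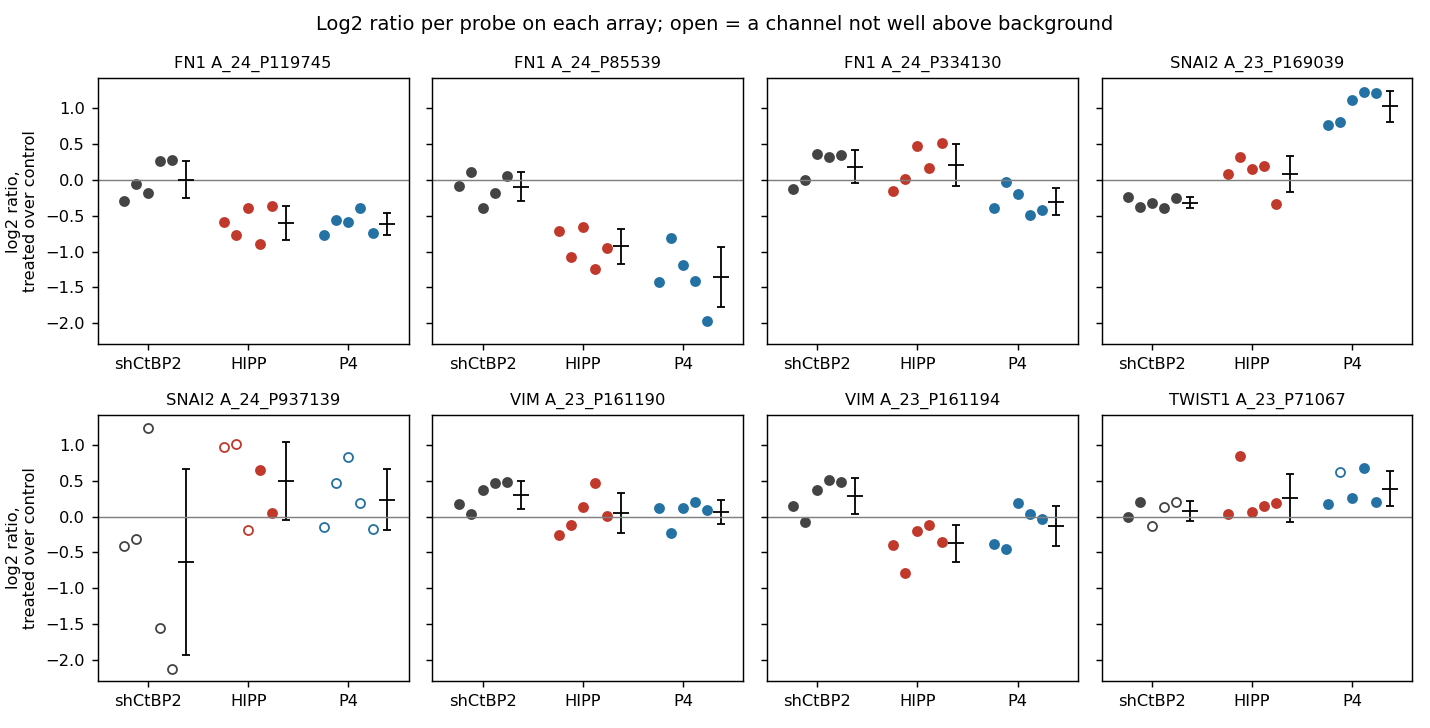
Log2 ratio of treated over control cells (y axis, linear) for single probes of FN1, SNAI2, VIM and TWIST1, 1 point per array, in shCtBP2, HIPP and P4 arrays (x axis); the black marks are means with SD, the grey line marks 0, and open points had a channel not well above background. The SNAI2 probe A_23_P169039 lies below 0 in all shCtBP2 arrays and between 0.77 and 1.22 in the P4 arrays, and the FN1 probe A_24_P85539 lies lowest with P4.

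CDH1 encodes E-cadherin and CDH2 N-cadherin. Neither was well above background in either channel on any of the 15 arrays. CDH1, printed on 10 spots of each array, had processed signals between 2.33 and 7.14 in treated and between 1.67 and 5.21 in control channels, in arbitrary units. CDH2, on 1 probe, had 2.75 to 10.6 and 1.81 to 16.2. With both channels at background no fold change is given for either gene, and an increase that stayed below the detection level was not detectable on these arrays. The ratios of background signals entered the tests with all other genes and did not pass, with adjusted p of 0.933, 0.102 and 0.171 for CDH1 and 0.346, 0.533 and 0.616 for CDH2 in shCtBP2, HIPP and P4.

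CDH11 encodes cadherin 11, or OB-cadherin, a mesenchymal cadherin of osteoblasts and invasive breast cancer lines. It was the one cadherin of the 3 members with signal. Its only probe, A_23_P152305, lies at chr16:63538370-63538429 of hg17 on the minus strand, and its first 30 bases are shown because this probe carries the only call among the members.
CDH11 probe A_23_P152305: aactaatacgtgccagatataactgtcttg

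With HIPP, the processed signal of CDH11 had a median of 12660 in control and 2296 in treated channels, and with P4 10241 and 3754. In shCtBP2 arrays the medians were 8475 and 8090. On all 10 inhibitor arrays the treated channel was lower than the control channel of the same array. The log2 ratios were -2.46, -2.59, -2.20, -3.16 and -2.46 with HIPP and -1.82, -1.40, -1.33, -1.51 and -1.89 with P4. CDH11 fell to 16.8% of control with HIPP (-2.57 ± 0.36, adjusted p = 3.56e-08) and to 33.2% with P4 (-1.59 ± 0.25, adjusted p = 1.47e-05). The highest HIPP array was below the lowest P4 array, a difference between unlike concentrations that was not tested.

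In shCtBP2 cells the log2 ratios of CDH11 were -0.74, -0.01, -0.10, 0.77 and -0.07. Replicates 1 and 4 lay apart from the others in opposite directions, and the mean was -0.03 ± 0.54 (95% interval -0.40 to 0.34, adjusted p = 0.931). This interval leaves out a fall of the size seen with either inhibitor. The means by slide were -2.42 and -2.81 with HIPP and -1.52 and -1.89 with P4. CDH11 was called in both inhibitor comparisons under every processing alternative run.

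**Figure D3:**
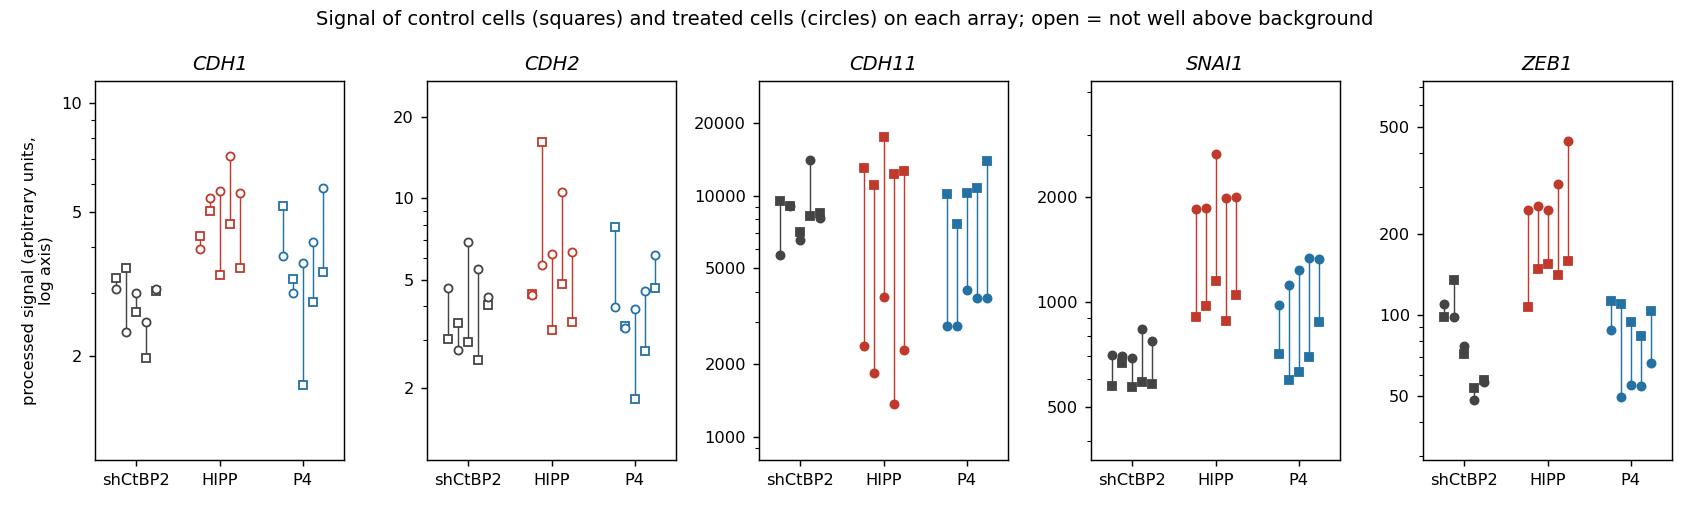
Processed signal in arbitrary units (y axis, log scale, its own range for each gene) of control cells (squares) and treated cells (circles) for CDH1, CDH2, CDH11, SNAI1 and ZEB1, with a line joining the 2 channels of each array, in shCtBP2, HIPP and P4 arrays (x axis); open symbols were not well above background. All CDH1 and CDH2 symbols are open, and CDH11 runs downwards from control to treated on all HIPP and P4 arrays.

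The genes whose log2 ratios followed those of CDH11 most closely over the 15 arrays, of 11952 genes compared, were SRPX (Pearson r = 0.986), PRSS23 (r = 0.973) and MED17 (r = 0.968). These r describe 15 arrays in 3 treatments, some of which share slides. PRSS23, a secreted serine protease, had mean log2 ratios of -0.31 for the knockdown, -1.60 for HIPP and -1.14 for P4. MED17, a Mediator subunit, had 0.11, -0.51 and -0.23. SRPX had 1.07, -0.47 and 0.07, so it shared the order of the arrays and not the direction of CDH11 in shCtBP2 or P4.

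FN1, fibronectin, was read by 3 probes. Each spans more of the genome than its 60 bases, so each crosses a splice junction. They are shown because they did not give the same ratio. A_24_P119745, printed on 10 spots, lies at chr2:216051838-216052239, A_24_P85539 at chr2:216060632-216062167 and A_24_P334130 at chr2:216113723-216114401 (hg17, minus strand). The last was designed against a different FN1 transcript record.
FN1 probe A_24_P119745: tacaaccagtattctcagagataccatcag
FN1 probe A_24_P85539: cctgttggcactgatgaagaacccttacag
FN1 probe A_24_P334130: aatactctttctgcacagaccacactgttt

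Averaged over its probes, FN1 had log2 ratios of -0.49, -0.61, -0.19, -0.66 and -0.27 with HIPP, -0.86, -0.47, -0.66, -0.76 and -1.04 with P4, and -0.16, 0.02, -0.07, 0.14 and 0.23 in shCtBP2 cells. It was lower than control on all inhibitor arrays. FN1 fell to 73.6% of control with HIPP (-0.44 ± 0.21, adjusted p = 0.00184) and to 59.1% with P4 (-0.76 ± 0.21, adjusted p = 7.32e-05). The P4 fall of 1.69-fold was under the threshold. With slide as a fixed block it passed the threshold for a call (-0.93, adjusted p = 0.0181), and the HIPP value no longer passed the test (-0.31, adjusted p = 0.0718). In shCtBP2 cells the mean was 0.03 ± 0.16 (adjusted p = 0.877).

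By probe, A_24_P85539 fell most, with -0.93 ± 0.25 with HIPP (adjusted p = 5.20e-05) and -1.36 ± 0.42 with P4 (adjusted p = 7.65e-06), the latter past the fold threshold. A_24_P119745 had -0.60 ± 0.23 and -0.61 ± 0.15 (adjusted p = 0.000311 and 0.000711). A_24_P334130 did not share this fall with HIPP, with 0.20 ± 0.29, and had -0.31 ± 0.19 with P4, where 0 of 5 arrays were higher. It did not pass the interquartile range filter in either. Differences between the probes were not tested.

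VIM encodes vimentin, and both of its probes were bright on every array without saturation. The log2 ratios of VIM were 0.16, -0.02, 0.37, 0.49 and 0.48 in shCtBP2 cells, -0.33, -0.46, -0.03, 0.17 and -0.18 with HIPP, and -0.13, -0.35, 0.15, 0.12 and 0.03 with P4. Its mean was 0.30 ± 0.22 in shCtBP2 cells (adjusted p = 0.0875) and -0.03 ± 0.21 with P4 (adjusted p = 0.827), neither past the test. The knockdown value differed between slides, with 0.07 over the 2 arrays on slide 3 and 0.45 over the 3 on slide 4, and was 0.0094 with slide as a fixed block (adjusted p = 0.978). It passed the adjusted p, under the fold threshold, with the replicate number as a block (adjusted p = 0.0129) and was called with uncorrected mean signals (0.66, adjusted p = 0.0327). With HIPP the mean was -0.17 ± 0.25, without a test. The probes parted with HIPP: A_23_P161194 was lower on 5 of 5 arrays (-0.38, adjusted p = 0.0189 probe by probe), and A_23_P161190 averaged 0.05. The direction of VIM with both inhibitors turned under other background corrections.

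Whether a member responded differently to an inhibitor than to the knockdown was tested as a difference of log2 ratios in the same fit. For HIPP minus shCtBP2, 5 of the 9 members tested passed (26.3% of all 24964 genes tested), and for P4 minus shCtBP2, 5 of 10 (12.1% of 24997). They were CDH11, FN1, SNAI1, SNAI2 and ZEB1 in both. Both differences use the same shCtBP2 arrays. The largest was that of CDH11, -2.55 for HIPP (95% interval -3.07 to -2.02, adjusted p = 4.10e-06) and -1.56 for P4 (-2.08 to -1.04, adjusted p = 0.000796).

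ZEB1 was higher with HIPP than in shCtBP2 cells by 1.12 (95% interval 0.73 to 1.52, adjusted p = 0.000381) and differed with P4 by -0.63 (-1.03 to -0.24, adjusted p = 0.0383). SNAI1 was higher by 0.74 with HIPP (0.46 to 1.03, adjusted p = 0.000757) and by 0.46 with P4 (0.18 to 0.75, adjusted p = 0.0361). FN1 differed by -0.47 (adjusted p = 0.0214) and -0.79 (adjusted p = 0.00209), and SNAI2 by 0.76 (adjusted p = 0.0476) and 1.10 (adjusted p = 0.0150). VIM differed by -0.46 for HIPP (-0.79 to -0.13), with no test after the interquartile range filter and an adjusted p of 0.0381 without that filter. On the 1 slide that held both treatments, and with slide as a fixed block, this difference was -0.073, without a test. For P4 it differed by -0.33 (-0.66 to -0.0010, adjusted p = 0.194), and it passed with the replicate number as a block (adjusted p = 0.0378), the 1 call of the P4 comparison that this block changed. With slide as a fixed block the P4 difference turned to 0.23 (adjusted p = 0.685). The 95% intervals of TWIST1 for both and of ZEB2 for P4 included 0. That of ZEB2 with HIPP did not, at -0.87 to -0.09, but its adjusted p was 0.0656. This difference passed over spots above background in at least 1 channel (adjusted p = 0.0384) or in both (adjusted p = 0.0321). It also passed in 2 of the 14 settings without a single array that tested it.

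The differences of CDH11 kept under 0.05 without any single array, except without shCtBP2 replicate 3, where CDH11 and FN1 did not pass the interquartile range filter and had no test. ZEB1 and SNAI1 for HIPP and SNAI2 for P4 also passed in all 15 settings, and FN1 for P4 in the 14 that tested it. The other 4 depended on single arrays. For P4 minus shCtBP2, SNAI1 missed 0.05 without shCtBP2 replicate 1, 2, 3 or 5 or P4 replicate 2, 3 or 4 (adjusted p 0.0570 to 0.0927). ZEB1 missed it without shCtBP2 replicate 1, 3, 4 or 5 or P4 replicate 2, 3, 4 or 5 (0.0635 to 0.0945). For HIPP minus shCtBP2, FN1 missed it without shCtBP2 replicate 5 or HIPP replicate 2 (0.0587 and 0.0555), and SNAI2 passed in 4 of the 15 settings.

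On the 1 slide that held both treatments, HIPP replicates 4 and 5 and shCtBP2 replicates 1 and 2, the difference was -2.44 for CDH11, 1.45 for ZEB1, 0.87 for SNAI1, 0.48 for SNAI2 and -0.39 for FN1, the members that had passed. Of the others with signal, TWIST1 differed there by 0.96, ZEB2 by -0.44 and VIM by -0.073. Each had the sign of the full comparison. With slide as a fixed block, CDH11, SNAI1 and ZEB1 still passed for HIPP (adjusted p = 0.00115, 0.0139 and 0.00555). For P4, whose arrays shared no slide with shCtBP2, 0 of the members passed with the slide block, and the ZEB1 difference shrank to -0.07. There the slide and the treatment cannot be fully told apart. P4 replicates 1 to 4 were also scanned on another date than all other arrays.

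**Figure D4:**
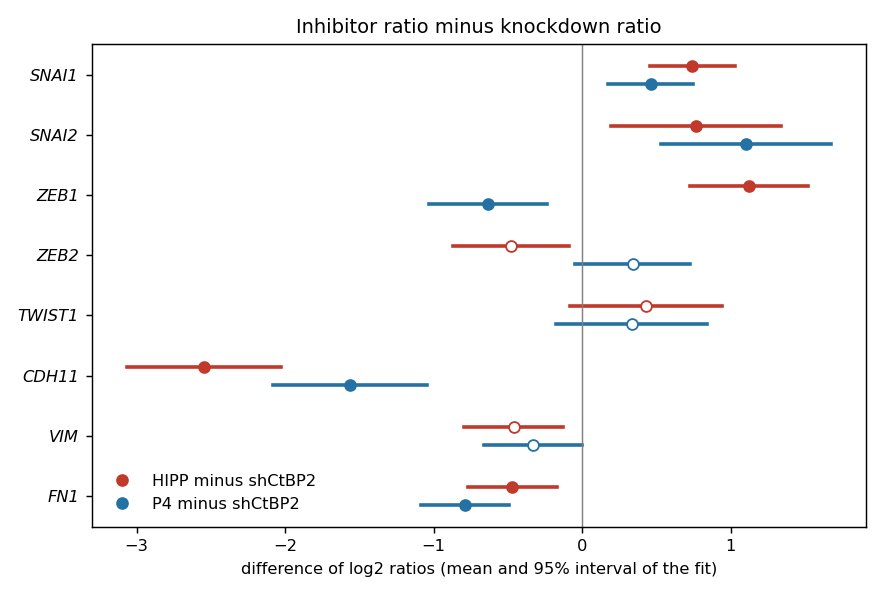
Difference of log2 ratios (x axis, linear), HIPP minus shCtBP2 and P4 minus shCtBP2, for the 8 members with signal (y axis); points are means, horizontal lines 95% intervals of the limma fit, filled points have an adjusted p under 0.05, and open points do not or, for VIM with HIPP, had no test. ZEB1 lies right of 0 for HIPP (1.12) and left of it for P4 (-0.63), and CDH11 lies left of it for both.

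Other genes of the same programme are described by list, with counts over the genes tested, to be read against the 6.57, 7.05 and 8.46% of all genes called in shCtBP2, HIPP and P4. Of 20 other cadherins, 2 of 19 tested were called in shCtBP2 cells, 1 higher and 1 lower, 0 of 16 with HIPP and 0 of 20 with P4. By the adjusted p alone, 2 passed in shCtBP2, 5 in HIPP and 3 in P4, against 13.5, 48.7 and 31.9% of all genes. The median log2 ratios of this list were -0.04, 0.25 and 0.22 in shCtBP2, HIPP and P4. In shCtBP2 cells 10 of the 20 were above background in neither channel. CDH12 was called lower (-0.67 ± 0.42, adjusted p = 0.00823), with signal above background on 2 treated and 3 control channels. It was -0.20 with its brightest probe (adjusted p = 0.507), -0.036 over spots above background in both channels, without a test, and under the fold threshold without shCtBP2 replicate 2 (-0.55). CDH5, VE-cadherin, was called higher (1.18 ± 0.88, adjusted p = 0.0210), was never above background in control cells, and lost the test without shCtBP2 replicate 1, 2, 3 or 4. Set against the lowest signal of the probes above background on each array, it was 1.06-fold higher, without a test. With normexp and loess CDH5 was 0.095 and did not pass (adjusted p = 0.246). Among the endothelial markers, to which CDH5 belongs, 2 of 8 were called higher in shCtBP2 cells and TEK was never above background. All RNA came from the cultured MDA-MB231 line.

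Of 10 catenins and related proteins, 2 of 10 tested were called in shCtBP2 cells, both lower, 0 of 8 with HIPP and 1 of 6, lower, with P4. By the adjusted p alone, 4 of the 10 fell and 1 rose in shCtBP2 cells (13.5% of all genes passed), 4 of 8 fell with HIPP (48.7% of all genes), and 2 of 6 fell and 1 rose with P4 (31.9% of all genes). The medians were -0.11, -0.36 and -0.23. PKP4 (-0.59 ± 0.25, adjusted p = 0.00283) and ARVCF (-0.62 ± 0.31, adjusted p = 0.0284), both of the p120 catenin family, fell in shCtBP2 cells. Both also passed the adjusted p with HIPP, under the fold threshold of that treatment, PKP4 at -0.83 (adjusted p = 2.00e-05) and ARVCF at -0.59 (adjusted p = 0.0119). ARVCF lost the test without shCtBP2 replicate 1, 3, 4 or 5 and with its brightest probe (-0.43, adjusted p = 0.0517), and PKP4 fell by under 1.5-fold without replicate 2, 4 or 5 (-0.56 to -0.53). CTNNAL1, alpha-catulin, fell with P4 (-0.93 ± 0.21, adjusted p = 0.000101). It also passed the adjusted p, under the fold threshold, with HIPP (-1.25 ± 0.40, adjusted p = 1.51e-06) and in shCtBP2 cells (-0.41 ± 0.15, adjusted p = 0.0438).

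A list of 20 further transcription factors mixes factors that drive the transition with some that oppose it, such as GRHL2 and OVOL2. Of these, 2 of 18 tested were called in shCtBP2 cells, 1 higher and 1 lower, 0 of 19 with HIPP and 1 of 16, higher, with P4. The medians over both kinds were -0.06, 0.26 and 0.21. KLF8, a zinc finger factor, rose in shCtBP2 cells (3.36 ± 1.07, adjusted p = 3.03e-06), with signal above background in 1 of 5 control channels, so that the size of the rise is uncertain. It was 0.91 with another correction for background and dye, normexp and loess (adjusted p = 0.000762), 0.84 with uncorrected mean signals (adjusted p = 8.73e-05) and 1.90 over spots above background in both channels, without a test. It also rose with P4 (1.01 ± 0.28, adjusted p = 0.0129), where 3 treated and 2 control channels were above background, and this direction turned with mean signals corrected for neither background nor dye. TCF4, an E protein and not the Wnt factor TCF7L2, was never above background in shCtBP2 cells (-1.53 ± 0.62, adjusted p = 0.000564). By the rule used for CDH5 it was 1.09-fold lower there, without a test. With normexp and loess TCF4 was -0.12 and did not pass (adjusted p = 0.133).

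Matrix, contractile and invasion genes of mesenchymal cells, 24 in all, held 3 calls among 22 tested in shCtBP2 cells, 1 higher and 2 lower, 3 among 23 with HIPP, 2 higher and 1 lower, and 4 among 22 with P4, 1 higher and 3 lower. The medians were -0.0016, 0.0096 and 0.27. CAV1, the coat protein of caveolae, fell with HIPP (-2.07 ± 0.29, adjusted p = 5.41e-09) and P4 (-1.38 ± 0.18, adjusted p = 7.63e-07). The collagen cross-linking enzyme LOX rose with both (2.29 ± 0.41, adjusted p = 7.47e-08, and 1.43 ± 0.46, adjusted p = 2.99e-05). Its relative LOXL2 fell with P4 (-1.09 ± 0.17, adjusted p = 7.42e-07) and passed the adjusted p with HIPP under the fold threshold (-1.27 ± 0.11, adjusted p = 3.02e-08), and the hyaluronan receptor CD44 rose with HIPP (1.40 ± 0.28, adjusted p = 6.97e-08, and 1.30, under the fold threshold, without HIPP replicate 5). Of 10 fibronectin receptor genes, integrin subunits and the syndecan SDC4, 0 of 9 tested were called in shCtBP2 cells, 0 of 6 with HIPP and 0 of 6 with P4. By the limma adjusted p alone, 1 of 9 fell in shCtBP2 cells, 2 of 6 fell with HIPP and 0 of 6 passed with P4, against 13.5, 48.7 and 31.9% of all genes, and the medians were -0.24, 0.01 and -0.28.

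Of 24 epithelial genes known to be repressed by ZEB and SNAI factors, 2 of 21 tested were called in shCtBP2 cells, both higher, 0 of 20 with HIPP and 1 of 22, lower, with P4. By the adjusted p alone, 4 rose and 2 fell in shCtBP2 cells (13.5% of all genes passed). With HIPP 4 rose and 2 fell (48.7% of all genes), and with P4 3 rose and 1 fell (31.9% of all genes). The medians were -0.04, 0.19 and 0.01. Those higher in shCtBP2 cells were CLDN7, the tight junction protein claudin 7 (0.97 ± 0.27, adjusted p = 0.00172), and PLEKHA7, an adherens junction protein (0.73 ± 0.61, adjusted p = 0.0107). PLEKHA7 lost the test without shCtBP2 replicate 2 or 4. PATJ, a polarity scaffold, passed the adjusted p with HIPP under the fold threshold (-0.77 ± 0.24, adjusted p = 0.000286). It fell with P4 (-0.92 ± 0.19, adjusted p = 0.000206), and was no longer called with its brightest probe (-0.58, adjusted p = 0.0582) or over spots above background in both channels (-0.59, adjusted p = 0.108). Of the 12 luminal breast markers, 3 of 12 tested were called lower in shCtBP2 cells, 0 of 9 with HIPP and 1 of 12, lower, with P4.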

How the data were processed

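RNA of treated and control MDA-MB231 cells was hybridised by the authors to 15 two-colour whole human genome arrays (treated Cy5, control Cy3). The authors used Agilent Feature Extraction (version 9.5.3.1, hg17 annotation) to correct background and dye differences, and the deposited files hold these processed signal intensity values per spot. The deposited value table of the series holds log10 ratios of the same arrays (median 0 on each). It was matched by feature number and used as an alternative. Columns not mapped to a sample numbered 0.

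Each spot was given the log2 of its Cy5 over its Cy3 processed signal. Control spots and the 78 to 265 gene spots per array flagged as non-uniform or outliers were left out, and spots were averaged to probes and probes to genes. Of 43376 spots, gene names were updated to current symbols through the accession (25639), the symbol (2416) or a synonym (1040), and 14281 kept the name in the file. A gene needed 3 of 5 arrays, a limit chosen here in place of the methods' limit on missing values, and, following the methods, the 11% with the lowest interquartile range over the 10 channel signals of a treatment were removed. All 15 arrays entered 1 limma fit (3.58.1, R 4.3.3) with a mean per treatment tested against 0, and Benjamini-Hochberg adjustment over all genes tested. The ratio was tested because both channels lie on 1 array; the methods' t-test was an alternative. If arrays shared a control extract, which is not given in the sources used here, the spread between control samples is left out.

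The deviations of same-numbered shCtBP2 and P4 arrays from their group means correlated at 0.17 to 0.49 in 5 of 5 pairs, while some pairs with HIPP did not reach 0.1, so the replicate block is given beside the P4 difference where it changed a call. The members and lists were chosen with earlier results of these data known. Named genes were all members, up to 4 called genes per other list by smallest adjusted p, and the 3 genes most correlated with each called member. For CDH5 and TCF4, the bright channel after loess and Aquantile normalization was also set against a floor for the dim channel. The floor was the higher of the dim signal and the lowest signal of probes above background. This fold is an estimate without a test and may carry a dye bias. Alternatives were other background corrections, filters on dim spots and on little-varying genes, probe rules, slide and replicate blocks, separate fits, a common threshold of 1.5-fold, the methods' t-test, the series value table and leaving out each array. Scripts were tested on simulated data. The number of arrays limits the precision. Python 3.11.15, pandas 2.3.3 and matplotlib 3.10.9 drew the figures.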

Additional observations from a re-analysis of the deposited data

Results flagged for a closer look

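Of 48 sets of 5 arrays examined for members and their probes, 5 held an array that stood apart from the other 4, where chance gives about 1 in 20. TWIST1 was at -0.39 in HIPP replicate 1, with the others at 0.40 to 0.52, and its probe A_23_P71067 was at 0.85 in HIPP replicate 2, with the others at 0.03 to 0.18. ZEB2 was at 0.27 in HIPP replicate 3, with the others at -0.43 to -0.28, and at -0.0034 in P4 replicate 2, with the others at 0.64 to 0.85. The VIM probe A_23_P161190 was at -0.24 in P4 replicate 2, with the others at 0.10 to 0.20.

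The response differed from that to the knockdown, by the limma test of the difference, for 5 members with each inhibitor. With HIPP the log2 ratio minus that in shCtBP2 cells was -2.55 for CDH11, -0.47 for FN1, 0.74 for SNAI1, 0.76 for SNAI2 and 1.12 for ZEB1. With P4 it was -1.56 for CDH11, -0.79 for FN1, 0.46 for SNAI1, 1.10 for SNAI2 and -0.63 for ZEB1.

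All arrays of a treatment lay on opposite sides of 0 for ZEB1, with means of 1.05 in HIPP and -0.71 in P4, a difference that was not tested. The same held for the SNAI2 probe A_23_P169039, with -0.32 in shCtBP2 cells and 1.02 in P4. With that probe alone for SNAI2, the difference of 1.34 passed the limma test (adjusted p = 3.41e-05).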

How the results depend on the processing

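CDH11 was called with HIPP and P4 under every alternative run. The number of members called in shCtBP2 cells went from 0 to 1 with background-subtracted or uncorrected mean signals (VIM) and with spots above background in at least 1 channel (SNAI2), and was 0 to 1 leaving out each array. With HIPP it went from 1 to 3 at 1.5-fold and was 1 in each left-out setting. With P4 it went from 1 to 2 with spots above background in at least 1 or in both channels, the brightest probe (SNAI2 in each) or slide as a fixed block (FN1), to 3 with each probe on its own and to 5 at 1.5-fold, and was 1 to 2 leaving out arrays. For HIPP minus shCtBP2, the 5 members that differed became 1 with mean signals and 3 with slide as a fixed block, and 3 to 7 leaving out arrays. For P4 minus shCtBP2, they became 3 with normexp and loess, 0 with mean signals and 0 with slide as a fixed block, and 1 to 5 leaving out arrays, the 1 without shCtBP2 replicate 3. The cause was not tested, except that CDH11 and FN1 were filtered out in that setting and that a lower fold threshold lets more genes through.

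Genes called in shCtBP2 cells numbered 271 with normexp and loess, 263 with mean signals and 969 with the adjusted methods' t-test, against 1813, and 1300 to 1921 leaving out arrays. With HIPP they numbered 280 with normexp and loess and 8976 at 1.5-fold, against 1944, and 1731 to 2232 leaving out arrays. With P4 they numbered 585 with normexp and loess, 583 with mean signals, 1464 with spots above background in both channels, 891 with the adjusted t-test and 4831 at 1.5-fold, against 2333, and 2096 to 2805 leaving out arrays. Mean signals, which keep the dye difference, moved the median of all genes by -0.25, -0.50 and -0.37 in shCtBP2, HIPP and P4, and the share of calls that were higher from 50.9 to 30.4%, 48.7 to 2.54% and 50.8 to 35.2%. Background-subtracted signals moved it to 39.6% with P4.

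Signs turned as follows, none of a member that had passed the test as reported; with mean signals, SNAI2 and TWIST1 with HIPP and TWIST1 with P4 passed with the turned sign (adjusted p = 0.0250, 0.000518 and 0.00729). With normexp and loess, ZEB1 in shCtBP2 cells was 0.026, VIM 0.012 with HIPP and 0.12 with P4, and TWIST1 -0.018 with HIPP. With background-subtracted signals VIM was 0.062 with HIPP and 0.51 with P4. With mean signals, CDH11 was 0.00090, FN1 -0.072 and CDH5 -0.17 in shCtBP2 cells, SNAI2 -0.44 and TWIST1 -0.38 with HIPP, and VIM 0.45, TWIST1 -0.28 and KLF8 -0.10 with P4. TWIST1 in shCtBP2 cells was 0.094 with either filter on dim spots and 0.078 with the brightest probe. With slide as a fixed block CDH11 was 0.060 in shCtBP2 cells and VIM 0.24 with P4. Leaving out each array, CDH11 in shCtBP2 cells ranged from -0.23 to 0.15 (without replicate 1), TWIST1 from -0.21 to 0.0015 and ZEB1 from -0.13 to 0.022 (without replicate 2), FN1 from -0.021 (without replicate 5) to 0.077, and VIM with P4 from -0.081 to 0.044 (without P4 replicate 2).

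Arrays with the same replicate number in different treatments correlated at -0.44 to 0.79 (median 0.27, 15 pairs) over 17908 genes, and 3 arrays were closest to their own number, so the numbers were not taken as pairing over all treatments. With a replicate block, 0, 1 and 1 members and 2222, 1943 and 2429 genes were called in shCtBP2, HIPP and P4, and 6 members differed for each inhibitor, with ZEB2 added for HIPP (adjusted p = 0.0360) and VIM for P4. VIM in shCtBP2 cells passed the adjusted p with it (0.0129) but not the fold threshold, and the block changed no other call or pass of the 8 members with signal. By the adjusted p alone, SNAI1 in shCtBP2 cells passed in 11 of 14 alternatives that tested it, and with P4 SNAI2 and ZEB1 in 12 of 14 each and ZEB2 in 11 of 14. Of the other genes called, with slide as a fixed block CDH12, CDH5, PKP4 and PLEKHA7 in shCtBP2 cells and LOX and PATJ with P4 were no longer called, and with normexp and loess TCF4, CDH12, CDH5, PKP4, ARVCF and PLEKHA7 in shCtBP2 cells and KLF8 and PATJ with P4. With mean signals TCF4, CDH12, CDH5, PKP4, ARVCF, CLDN7 (0.78, adjusted p = 0.0587) and PLEKHA7 in shCtBP2 cells, CD44 with HIPP (0.74, under the fold threshold) and CTNNAL1 (-0.60, adjusted p = 0.231), KLF8 and PATJ with P4 were no longer called. CDH1, CDH2 and a TWIST1 probe were limited by signal at background.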
